A study of Mus musculus with 20 samples.

Results

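Ptgfr, Serinc3, Serpinb6b, 6820431F20Rik, Olfml3, Card14, Akr1b8 and Dmrta2 are 8 genes whose mRNA differed widely between knockout and control lenses at embryonic stage E17.5. They were selected on that difference of the array values, by name, and all 17 of their probe sets were then followed on every array through birth (P0). They stand for 8 of 18193 genes with a probe set of their own, and for 17 of 45037 probe sets that are not controls of the array. Ptgfr had 5 probe sets, Serinc3 had 6, and the other genes had 1 each.

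The mice lacked members of the E2F family, transcription factors that switch on genes needed for S phase and mitosis, and the study asked what precedes the collapse of lenses without E2F1, E2F2 and E2F3 in newborn mice. Lens RNA was measured on Affymetrix arrays, with 5 arrays in each of 4 groups. Control lenses were E2F2-/-, at E17.5 (embryos) or P0 (newborn pups). Triple knockout (TKO) lenses were Cry-Cre E2F1-/- E2F2-/- E2F3f/f at the same stages, so that E2F1 was lost in the germ line and E2F3 was floxed, to be removed by Cre. Loss of E2F2 was common to every mouse, and the Cre transgene, which a crystallin promoter drives in lens cells, was present in the knockout groups only. Effects of Cre itself and of the E2F alleles cannot be told apart. Each sample held both lenses of 1 mouse. The labels call the cells epithelial, and markers of lens epithelium and of lens fibre cells were both well above the array median (all 10 and all 15 listed genes, in all 20 arrays). Litter, sex and strain background are not in the labels, so whether mice of a group share them, or the genotypes differ in them, is not known. The p-values set each difference against the spread between arrays within the groups and do not account for this. Precision is limited by the number of arrays.

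The lens is a closed ball of one cell lineage. Its anterior epithelium divides, leaves the cell cycle at the equator and turns into elongated fibre cells filled with crystallins, a step in which E2F factors and their partner, the retinoblastoma protein, are known to act. The 8 genes have no single pathway in common: they encode a prostaglandin receptor, a membrane protein, a protease inhibitor, a transcribed pseudogene, a secreted glycoprotein, an NF-kB scaffold, a reductase and a transcription factor.

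RefSeq (GRCm38.p6) gave a promoter for 6 of the 8 genes. Those of Ptgfr, Olfml3 and Dmrta2, the genes with the largest tested differences at P0, are shown to let the E2F question be read in the letters. Each is the 250 bases before the gene's start, with capitals marking matches to the letters searched. These were TTCCCGC or TTGGCGC or TTCGCGC or TTGCCGC for the E2F site, CCAAT for the CCAAT box, GGGCGG for the GC box, TGACNNNGC for the antioxidant response element and TATAAA for the TATA box, on both strands, overlaps included.
Ptgfr, chr3:151837529-151837778, minus strand: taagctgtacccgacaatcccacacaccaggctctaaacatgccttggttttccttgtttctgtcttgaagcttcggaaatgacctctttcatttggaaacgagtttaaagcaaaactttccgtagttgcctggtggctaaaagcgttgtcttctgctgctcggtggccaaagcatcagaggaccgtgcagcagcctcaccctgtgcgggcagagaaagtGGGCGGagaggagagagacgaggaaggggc
Olfml3, chr3:103738002-103738251, minus strand: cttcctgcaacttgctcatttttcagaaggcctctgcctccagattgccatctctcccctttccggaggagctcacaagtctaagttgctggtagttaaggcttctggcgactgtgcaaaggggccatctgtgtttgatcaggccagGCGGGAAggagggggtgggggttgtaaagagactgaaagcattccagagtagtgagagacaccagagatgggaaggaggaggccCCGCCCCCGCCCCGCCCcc
Dmrta2, chr4:109977775-109978024, plus strand: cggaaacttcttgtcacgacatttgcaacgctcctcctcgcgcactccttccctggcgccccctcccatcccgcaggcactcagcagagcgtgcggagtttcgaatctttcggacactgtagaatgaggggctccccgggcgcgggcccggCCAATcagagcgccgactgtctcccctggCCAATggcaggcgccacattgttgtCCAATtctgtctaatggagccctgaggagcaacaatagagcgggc
Of the 6 promoters, that of Olfml3 alone held one of the E2F letter strings, TTCCCGC on the other strand, 103 to 97 bases before the start. Any of the 4 strings was present in 7.89% of all 32851 promoters of this length. The same stretch of Olfml3 ends in 3 GC boxes that overlap in part, and Ptgfr held 1 GC box, 30 to 25 bases before its start. A GC box was present in 32.7% of all promoters. Dmrta2 held 3 CCAAT matches, and CCAAT occurred in 33.8% of all promoters. Of the promoters not printed, Serinc3 held a CCAAT and a GC box, Serpinb6b a GC box, and Akr1b8 2 GC boxes and TATAAA on the other strand. The antioxidant response letters, present in 10.2% of all promoters, were in none of the 6. These matches are letters in a window and do not mark bound sites.

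The E17.5 contrast chose the genes, so E17.5 values and every change that uses them are given as a description. The P0 arrays did not enter the choice, and knockout was tested against control on these 10 arrays alone (limma, all 45037 probe sets, two-sided, Benjamini-Hochberg adjustment, called at an adjusted p below 0.05). At P0, 9 of the 17 probe sets passed, 6 higher and 3 lower in knockout lenses, where 21.3% of all probe sets passed (10.8% higher and 10.6% lower). Of the 9, 5 belong to Ptgfr and so share a gene. Most member probe sets were bright, 12 of 17 lying above the array median in all 20 arrays. A filter kept probe sets above the array median in at least 5 of the 10 P0 arrays. With it 8 of 15 member probe sets passed, beside 8822 of 22756 in total. At the 75th percentile these were 5 of 9 and 5507 of 11435, so the gap narrowed among brighter probe sets. Counted by the probe set of highest mean over the 20 arrays, 5 of 8 genes passed, against 23.7% of all genes (12.7% higher and 11% lower). Ptgfr and Serinc3 rose by that count, Olfml3, Card14 and Dmrta2 fell, and Serpinb6b, 6820431F20Rik and Akr1b8 did not pass. By the brightest probe set in the 10 control arrays, an alternative added after seeing the data, Serinc3 is read by another one (mean 8.56 against 8.12 in controls), which did not pass, and 4 of 8 genes passed, against 23.6% of all genes. With the first of these choices the difference had the same sign at both stages in all 8 genes. It was smaller at P0 than at E17.5 in 5 of them, which picking genes for a large E17.5 difference favours by itself. By probe set, the sign was the same at both stages in 13 of 17. The Serinc3 probe set brightest in controls, 1455550_x_at, turned from 0.07 at E17.5 to -0.10 at P0. The shares of all genes with the same sign or a smaller difference are not given here.

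**Figure D1:**
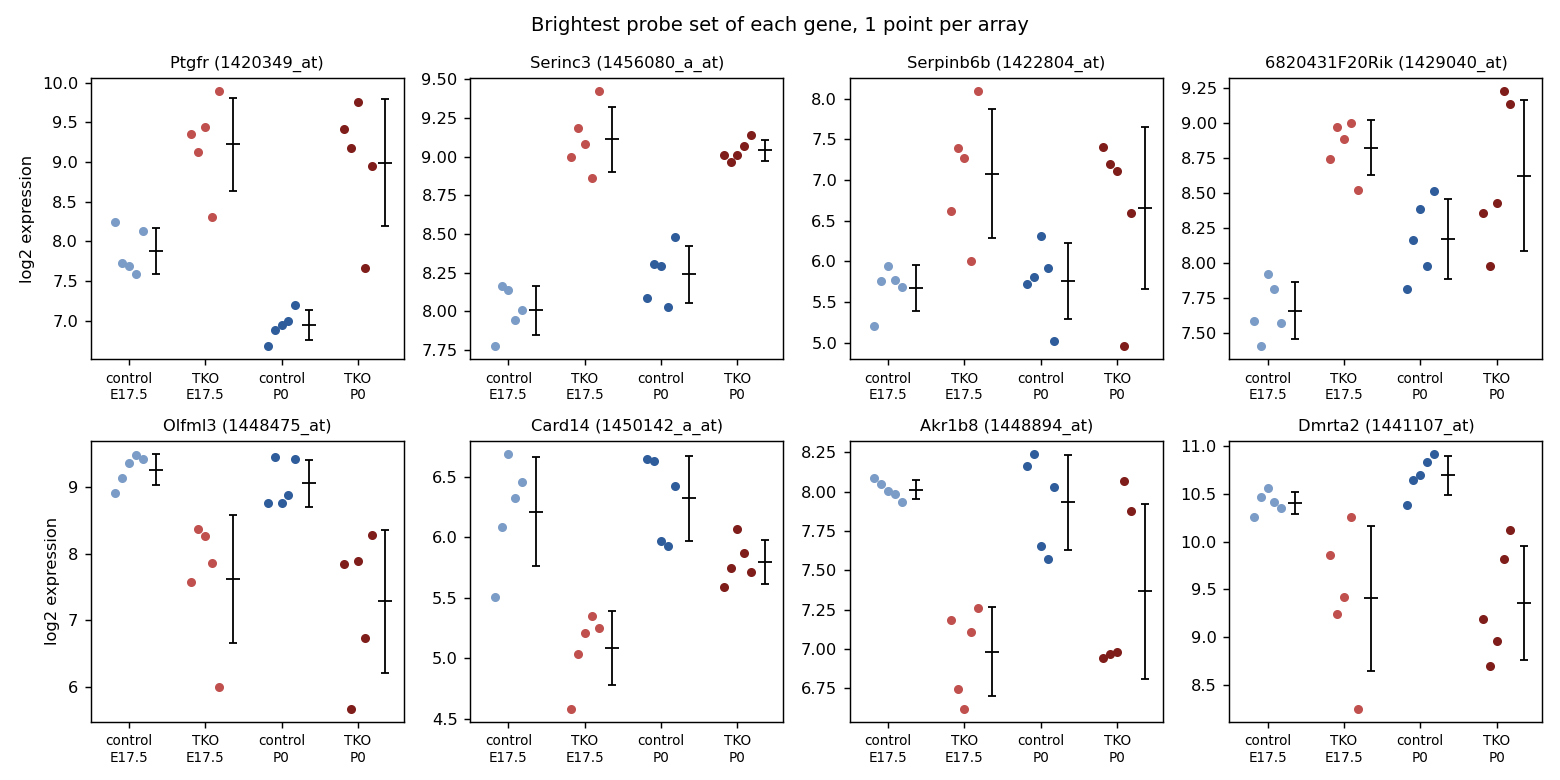
Log2 expression of the brightest probe set of each gene in each of the 20 arrays (points), with the mean and SD of 5 arrays (bars) for control and TKO lenses at E17.5 and P0; each panel has its own vertical axis. In every panel the 5 knockout arrays at E17.5 lie on one side of the 5 controls, and at P0 this holds for Ptgfr, Serinc3, Olfml3 and Dmrta2.

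Some properties of the whole series touch these results. TKO E17.5 replicates 24 and 27 were closer to the 5 controls of that stage (mean r of 0.990 and 0.993 over all probe sets) than to the other knockouts (0.985 and 0.988). Markers of the neural retina, which lies next to the lens, had a mean log2 level of 5.98 to 7.01 in control and 6.11 to 8.25 in TKO arrays at E17.5, and of 5.20 to 6.45 and 6.64 to 7.84 at P0. The P0 ranges did not overlap, so genotype and this mean cannot be fully told apart in a fit that holds both. Of 17 such markers, 7 were above the array median in every array, controls included. At P0, 14 of 17 neural retina markers and 8 of 12 pigment cell markers rose, where 12.7% of all genes rose and 11% fell. Of the lens epithelium markers 8 of 10 fell, while 13 of 15 lens fibre markers did not pass. Macrophage markers rose in 4 of 12. Not passing were 9 of 12 markers of ciliary body and mesenchyme, 11 of 12 of vessels and pericytes, 4 of 4 of red blood cells and 9 of 9 of surface epithelium. The Gapdh 5' minus 3' signal, a sign of RNA length, lay at 0.10 to 0.20 in TKO and at -0.06 to -0.02 in control arrays at E17.5, and at 0.15 to 0.19 and -0.05 to 0.06 at P0. The 18S ribosomal RNA signal lay at 9.20 to 10.53 in TKO and at 8.72 to 9.39 in control arrays at E17.5, and at 8.85 to 10.07 and 9.73 to 10.18 at P0, with overlapping arrays at both stages. The part of these RNA signals and of the other marker lists in the differences of the 8 genes was not tested. The neural retina mean was entered as a covariate at P0, with values given below. In RNA from whole lenses, fewer cells of a type and less RNA per cell cannot be told apart. Of the targeted genes, the brightest E2f1 probe set differed by 0.60 at E17.5 and 0.44 at P0 (TKO minus control, log2), E2f2 by -0.09 and -0.04, and E2f3 by -0.07 and -0.06. Probe positions relative to the deletions were not given in the sources used here.

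Ptgfr encodes the receptor for prostaglandin F2-alpha, a Gq-coupled receptor that raises intracellular calcium and is the target of drugs that lower eye pressure. Its mRNA was higher in knockout lenses at both stages and it showed the largest rise of the 8 genes at P0. By probe set 1420349_at, the control arrays at E17.5 read 8.25, 7.73, 7.70, 7.59 and 8.13 (log2) and the knockout arrays 9.35, 9.13, 9.44, 8.30 and 9.89. At P0 the controls read 6.68, 6.89, 6.95, 6.99 and 7.21 and the knockouts 9.42, 9.18, 9.76, 7.67 and 8.95. The groups did not overlap at either stage, and in both the knockout group had 1 array close to the controls, replicate 27 at E17.5 and replicate 21 at P0. The difference was 1.34 at E17.5 (2.54-fold), and at P0 Ptgfr rose by 2.05 ± 0.30 (SE, limma adjusted p = 0.000732, 4.14-fold). Between the stages the control mean went from 7.88 ± 0.29 to 6.94 ± 0.19 (SD, n = 5) and the knockout mean from 9.22 ± 0.58 to 8.99 ± 0.80. Control arrays of P0 all lay below those of E17.5, and knockout arrays of the stages overlapped, so the wider gap at P0 lies mostly in the lower control level.

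Of the other 4 probe sets of Ptgfr, 3 followed the first closely and 1 did not. Probe set 1453924_a_at rose by 2.13 ± 0.30 (adjusted p = 0.000626), 1449828_at by 2.22 ± 0.30 (adjusted p = 0.000512) and 1446331_at by 1.37 ± 0.34 (adjusted p = 0.0133) at P0. At E17.5 they differed by 1.55, 1.78 and 0.81. These 3 and 1420349_at correlated with each other at r of 0.91 to 0.997 over the 20 arrays, which come from the same RNA. For 1446331_at the groups overlapped at both stages, since its P0 values were 5.83 to 6.55 in controls and 7.94, 7.67, 8.43, 6.06 and 7.79 in knockouts. The dim probe set 1440777_x_at, which lay above the array median in 2 of 20 arrays and correlated with the other 4 at 0.451 to 0.616, rose by 0.52 ± 0.17 (adjusted p = 0.0422), a call that 9 of 15 other settings ended (adjusted p up to 0.101). With the mean of the neural retina markers of each array as a covariate, the change at P0 was 2.90 for 1420349_at (adjusted p = 0.00843) and 2.43 to 3.21 for the other 3 bright probe sets (adjusted p of 0.00597 to 0.0177). The change of 1420349_at at P0 lay between 1.86 and 2.38 when each array was left out in turn, the highest without replicate 21.

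Genes of prostaglandin synthesis, reception and breakdown were counted beside the receptor. At P0, 4 of 24 rose and 3 fell, while 17 missed the threshold. This is 29.2% called against 23.7% of all genes, with a median change of 0.03 against 0.002 over all genes. The list is bright: 17 of 24 lay above the array median in at least 5 of the 10 P0 arrays, including all that passed. Of all probe sets kept by that filter, 8822 of 22756 passed. Hpgd, the enzyme that inactivates prostaglandins, rose by 2.31 ± 0.34 (adjusted p = 0.000739), while its difference at E17.5 was -0.48. Ptgr1, a prostaglandin reductase of the next breakdown step, rose by 1.5 ± 0.14 (adjusted p = 5.66e-05), and Ptgfrn, a membrane protein that binds the receptor's protein and reduces ligand binding, by 0.82 ± 0.12 (adjusted p = 0.000643). Pla2g4a, the phospholipase that frees arachidonic acid, fell by 0.82 ± 0.13 (adjusted p = 0.0013). Abcc4, a prostaglandin exporter, fell by 0.88 ± 0.16 (adjusted p = 0.00254), and Tbxa2r, the thromboxane receptor, by 0.26 ± 0.08 (adjusted p = 0.0452). Among 19 genes of Gq and calcium signalling, 2 rose and 4 fell, while 13 missed the threshold (31.6% called, median -0.08). Here 17 of 19 lay above the array median in at least 5 of the 10 P0 arrays, including all that passed. Rgs2, which switches off Gq, rose by 0.98 ± 0.14 (adjusted p = 0.000775) and the kinase gene Prkcb by 0.76 ± 0.14 (adjusted p = 0.00281), and the kinase gene Prkca fell by 0.68 ± 0.10 (adjusted p = 0.000897). Of the G protein and the calcium-dependent factor, Gna11 fell by 0.43 and Nfatc3 by 0.45.

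Serinc3 encodes a membrane protein with many spans, of a family known for limiting the infectivity of retroviruses. Its large difference was carried by 1 of its 6 probe sets. By 1456080_a_at the controls at E17.5 read 7.78, 8.17, 8.14, 7.95 and 8.01 and the knockouts 9.0, 9.19, 9.08, 8.86 and 9.42. At P0 the controls read 8.09, 8.30, 8.29, 8.03 and 8.48 and the knockouts 9.01, 8.97, 9.01, 9.07 and 9.14. The groups were apart at both stages and at P0 the knockout arrays lay closer together (SD 0.07) than the controls (SD 0.18). The difference was 1.10 at E17.5 (2.15-fold), and at P0 this probe set rose by 0.80 ± 0.09 (adjusted p = 0.000165, 1.74-fold).

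The other 5 probe sets of Serinc3 did not pass at P0. The brightest of them by level, 1455550_x_at, read 8.38 to 8.56 in controls and 8.28 to 9.12 in knockouts at E17.5, and 8.58 to 8.71 and 8.16 to 8.66 at P0. Its difference was 0.07 at E17.5 and -0.10 ± 0.10 at P0 (adjusted p = 0.532). For 1417815_a_at, 1434548_at, 1417816_s_at and 1448847_at the differences were 0.06, -0.04, 0.03 and 0.04 at E17.5 and -0.13, -0.07, -0.07 and -0.07 at P0 (adjusted p of 0.441, 0.63, 0.722 and 0.69), with overlapping arrays throughout. Probe set 1448847_at lay above the array median in none of the 20 arrays. The correlation of 1456080_a_at with the other 5 was -0.185 to 0.159 over the 20 arrays, while 1455550_x_at and 1417815_a_at correlated at 0.965. When the 6 probe sets were averaged, the change of Serinc3 at P0 was 0.06 ± 0.06 (adjusted p = 0.561), so the call for the gene rests on the probe set taken for it. With the neural retina covariate, 1456080_a_at changed by 0.82 (adjusted p = 0.0204).

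**Figure D2:**
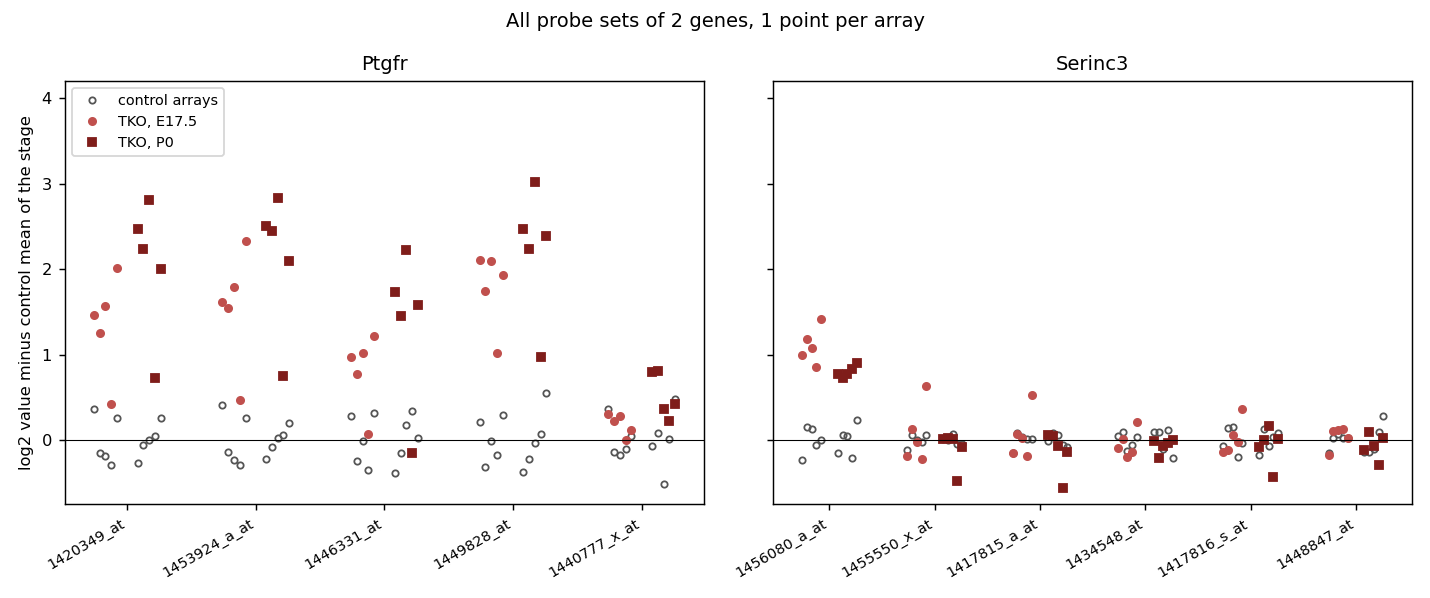
Log2 value of each array minus the control mean of its stage, for the 5 probe sets of Ptgfr (left) and the 6 of Serinc3 (right); open circles are controls of both stages, filled circles knockouts at E17.5 and squares knockouts at P0. In 4 of 5 probe sets of Ptgfr most knockout points lie well above 0, whereas for Serinc3 only 1456080_a_at does.

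The Serinc family has 4 other genes with a probe set. Serinc5 rose by 0.62 ± 0.12 (adjusted p = 0.00335) and Serinc4 by 0.25 ± 0.08 (adjusted p = 0.0362) at P0. The other 2 did not pass (50% called against 23.7% of all genes, median of the 4, 0.23). The probe set of Serinc5 was dim, above the array median in 0 of the 10 P0 arrays. Their differences at E17.5 were 0.10 and 0.19.

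Serpinb6b encodes an intracellular serine protease inhibitor of the clade B serpins. In E17.5 lenses its mRNA was higher in the knockouts, while the P0 difference did not pass the test. At E17.5 the controls read 5.20, 5.75, 5.95, 5.78 and 5.68 and the knockouts 6.62, 7.39, 7.27, 6.01 and 8.09. In P0 lenses the controls read 5.72, 5.80, 6.31, 5.92 and 5.02 and the knockouts 7.41, 7.20, 7.11, 4.96 and 6.60. The groups were apart at E17.5, narrowly so at knockout replicate 27, and overlapped at P0, where knockout replicate 21 was the lowest of the 10 arrays and the other 4 knockouts were above every control. The difference was 1.40 at E17.5 (2.64-fold) and 0.90 ± 0.40 at P0 (adjusted p = 0.134, 1.87-fold). Without knockout replicate 21 the P0 difference was 1.32 (adjusted p = 0.00176), and without any other single array it did not pass (adjusted p of 0.124 to 0.275). With the neural retina covariate it did not pass either (adjusted p = 0.272). Of 17 other clade B serpins, 1 rose and 16 did not pass at P0 (5.88% called against 23.7% of all genes, median 0.01). Among them 2 of 17 lay above the array median in at least 5 of the 10 P0 arrays, so most were dim. The one that rose was Serpinb6a, an inhibitor of the same subfamily, by 0.34 ± 0.11 (adjusted p = 0.0488).

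6820431F20Rik is a transcribed pseudogene in RefSeq. By its 1 probe set, the controls at E17.5 read 7.59, 7.41, 7.92, 7.82 and 7.58 and the knockouts 8.74, 8.97, 8.88, 9.0 and 8.52. In P0 lenses the controls read 7.81, 8.16, 8.38, 7.98 and 8.51 and the knockouts 8.36, 7.98, 8.43, 9.22 and 9.14. The groups were far apart at E17.5, with TKO replicates 24 and 27 among the high arrays, and at P0 only replicates 21 and 22 stood above the controls. The difference was 1.16 at E17.5 (2.24-fold) and 0.45 ± 0.22 at P0 (adjusted p = 0.181). The control mean was 0.51 higher at P0 than at E17.5, and the knockout mean changed by -0.20. An array probe for a pseudogene can also bind transcripts of its near copies, and 2 further probe sets that the annotation shares between this locus and other genes were not used. A list of 10 cadherins was counted beside it, since general knowledge, which the tables used here do not state, likens the locus to Cdh11. Of these, 3 rose and 2 fell at P0, while 5 did not pass (50% called against 23.7% of all genes, median 0.09). In this list 7 of 10 lay above the array median in at least 5 of the 10 P0 arrays. Cdh11, a cadherin of mesenchymal cells, rose by 2.26 ± 0.24 (adjusted p = 0.000137), with a difference of 0.94 at E17.5. Cdh6 rose by 1.40 ± 0.18 (adjusted p = 0.000389) and Cdh8 by 0.33 ± 0.09 (adjusted p = 0.0234), the latter by a probe set above the array median in 0 of the 10 P0 arrays. Cdh1, E-cadherin of the lens epithelium, fell by 1.94 ± 0.23 (adjusted p = 0.000226), and Cdh2, N-cadherin, by 0.77 ± 0.16 (adjusted p = 0.00476).

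Olfml3 encodes a secreted glycoprotein with an olfactomedin domain. It was lower in knockout lenses at both stages and had the largest fall of the 8 genes at P0. At E17.5 the controls read 8.92, 9.14, 9.37, 9.49 and 9.42 and the knockouts 7.58, 8.38, 8.27, 7.87 and 5.99. At P0 the controls read 8.76, 9.45, 8.77, 8.88 and 9.44 and the knockouts 7.85, 5.67, 7.90, 6.73 and 8.29. The groups did not overlap at either stage, and the knockout arrays were spread over more than 2 log2 units at each stage, with replicate 28 lowest at E17.5 and replicate 18 lowest at P0. The difference was -1.65 at E17.5 (3.14-fold), and at P0 Olfml3 fell by 1.77 ± 0.41 (adjusted p = 0.009, 3.42-fold). With the neural retina covariate the change was -0.69 ± 0.58 (adjusted p = 0.598), which ended the call, with a smaller change and a larger SE. Without single arrays it lay between -2.02 and -1.37, and the call held in all 10 of these fits. The control mean changed by -0.21 between the stages and the knockout mean by -0.33. Of 10 other genes with an olfactomedin domain, 7 rose and 1 fell, while 2 did not pass (80% called, median 0.43). Over all genes 23.7% passed, 12.7% higher and 11% lower. Of the 7 that rose, 3 lay above the array median in at least 5 of the 10 P0 arrays, so the count rests in part on dim probe sets. Olfm3 rose by 1.78 ± 0.20 (adjusted p = 0.000212), Olfml1 by 0.72 ± 0.13 (adjusted p = 0.00198) and Olfm4 by 0.47 ± 0.07 (adjusted p = 0.000774). Olfm3 lay above the array median in 4 of these arrays, and Olfml1 and Olfm4 in 0. Olfml2b, a secreted relative, fell by 0.47 ± 0.12 (adjusted p = 0.0159).

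Card14, also called CARMA2, encodes a scaffold that joins Bcl10 and Malt1 to signal to NF-kB in keratinocytes. Its mRNA was lower in knockout lenses, by less at P0 than at E17.5. At E17.5 the controls read 5.51, 6.08, 6.69, 6.32 and 6.46 and the knockouts 4.58, 5.03, 5.21, 5.35 and 5.25. In P0 lenses the controls read 6.65, 6.63, 5.97, 5.93 and 6.42 and the knockouts 5.58, 5.74, 6.07, 5.87 and 5.71. The groups were apart at E17.5, and at P0 knockout replicate 19 lay above the lowest controls. The difference was -1.13 at E17.5 (2.18-fold), and at P0 Card14 fell by 0.53 ± 0.15 (adjusted p = 0.0271, 1.44-fold). Leaving out control replicate 1, 5 or 8 or knockout replicate 17 or 18 took the adjusted p to 0.0578 to 0.0681. Fitting all 20 arrays took it to 0.0637, so this call depends on the arrays used. With the neural retina covariate the change was -0.65 ± 0.26 (adjusted p = 0.199), which ended the call with a larger change and a larger SE. Card14 was the one gene in which the knockout arrays of the stages did not overlap: all 5 were higher at P0 than at E17.5, with a mean change of 0.71, against 0.11 in controls. Stages without overlap occurred in 10.4% of all probe sets in knockout arrays.

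Of 17 genes of CARD scaffolds and NF-kB, 5 fell and 12 did not pass at P0 (29.4% called, median -0.10). Over all genes 23.7% passed, 12.7% higher and 11% lower. In this list 11 of 17 lay above the array median in at least 5 of the 10 P0 arrays. Malt1, the protease that binds Card14 through Bcl10, fell by 1.27 ± 0.23 (adjusted p = 0.00226). Ikbkb, a kinase that activates NF-kB, fell by 0.32 ± 0.07 (adjusted p = 0.00775). Tnfaip3, an NF-kB target that inhibits the pathway, fell by 0.85 ± 0.22 (adjusted p = 0.017) and lay above the array median in 3 of the 10 P0 arrays. Their differences at E17.5 were -0.40, -0.26 and -0.04.

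Akr1b8 encodes an aldo-keto reductase, an enzyme that reduces aldehydes, related to the aldose reductase of the lens. At E17.5 the controls read 8.09, 8.05, 8.0, 7.98 and 7.93 and the knockouts 7.18, 6.74, 6.62, 7.11 and 7.26. In P0 lenses the controls read 8.16, 8.24, 7.66, 7.57 and 8.03 and the knockouts 6.95, 6.97, 6.98, 8.06 and 7.88. The groups were apart at E17.5, where the controls had an SD of 0.06, and at P0 replicates 21 and 22 lay among the controls while the other 3 knockouts lay below them all. The difference was -1.03 at E17.5 (2.04-fold) and -0.56 ± 0.23 at P0 (adjusted p = 0.109). Without replicate 21 it was -0.74 at P0 (adjusted p = 0.0223), and without any other single array it did not pass (adjusted p of 0.0512 to 0.229). With the neural retina covariate it did not pass either (adjusted p = 0.253). Of 14 other genes of the aldo-keto reductases and the polyol pathway, 1 rose and 13 did not pass (7.14% called, median -0.05). Over all genes 23.7% passed. Among the 14, 5 lay above the array median in at least 5 of the 10 P0 arrays. The one that rose was Akr1b10, a reductase and the next gene with a probe set beside Akr1b8, by 0.53 ± 0.11 (adjusted p = 0.00435). Targets of Nrf2, the factor behind many detoxifying enzymes, were counted too. Of 17, 5 rose and 5 fell, while 7 did not pass (58.8% called against 23.7% of all genes, median 0.13). These were bright, with 15 of 17 above the array median in at least 5 of the 10 P0 arrays, including all that passed. Of all probe sets kept by that filter, 8822 of 22756 passed. Srxn1, which restores peroxiredoxins, rose by 0.49 ± 0.08 (adjusted p = 0.00148), and the glutathione transferase gene Gsta4 by 0.84 ± 0.17 (adjusted p = 0.00455). Ugdh, an enzyme of glucuronic acid synthesis, rose by 0.37 ± 0.07. Cat, catalase, fell by 0.54 ± 0.08 (adjusted p = 0.000941), the glutathione transferase gene Gstm1 by 0.74 ± 0.15 (adjusted p = 0.00374), and the transketolase gene Tkt by 0.42 ± 0.10.

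Dmrta2, also called Dmrt5, encodes a transcription factor with a DM domain, known from the developing forebrain. Its mRNA was lower in knockout lenses at both stages, by more at P0. At E17.5 the controls read 10.26, 10.46, 10.56, 10.41 and 10.35 and the knockouts 9.86, 9.24, 9.42, 10.26 and 8.24. At P0 the controls read 10.38, 10.64, 10.70, 10.84 and 10.92 and the knockouts 9.19, 8.70, 8.95, 9.82 and 10.12. The groups did not overlap at P0, and at E17.5 they touched, with knockout replicate 27 and control replicate 10 both at 10.26. The difference was -1.0 at E17.5 (2.01-fold), and at P0 Dmrta2 fell by 1.34 ± 0.23 (adjusted p = 0.00196, 2.53-fold). With the neural retina covariate the change was -1.14 ± 0.39 (adjusted p = 0.145), which ended the call, with a larger SE than without it. Leaving out each array in turn gave -1.53 to -1.17. The control mean was 0.29 higher at P0 and the knockout mean changed by -0.05. Of 7 other genes of the Dmrt family, 1 rose and 6 did not pass (14.3% called against 23.7% of all genes, median -0.02). Among the 7, 2 lay above the array median in at least 5 of the 10 P0 arrays. The one that rose was Dmrtc1a, by 0.71 ± 0.16 (adjusted p = 0.00836).

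**Figure D3:**
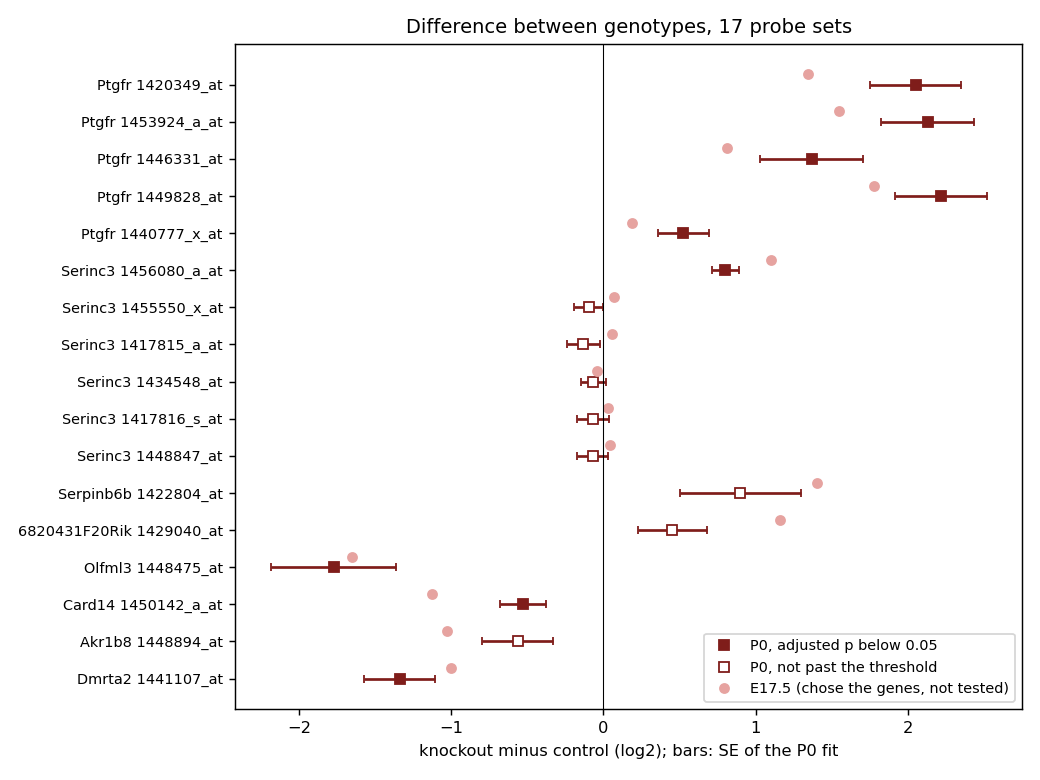
Knockout minus control log2 difference of the 17 probe sets at P0 (squares, filled where the adjusted p is below 0.05, with bars of 1 SE from the fit) and at E17.5 (pale circles, which chose the genes and carry no test). Ptgfr moves further from 0 at P0, the remaining 5 probe sets of Serinc3 lie between -0.13 and 0.07, and Serpinb6b, 6820431F20Rik, Card14 and Akr1b8 lie closer to 0 at P0 than at E17.5.

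Across stages, the arrays of knockout and control lenses did not overlap in 10 of 17 probe sets at E17.5, where the genes were picked (7.75% of all probe sets), and in 6 at P0 (15.4% of all). The difference at E17.5 was at least 1 log2 unit in 10 of 17, as in 0.4% of all, which the choice of genes fixes. In controls, P0 and E17.5 arrays were apart in 4 probe sets, 3 of Ptgfr and 1 of Serinc3 (14.2% of all). The difference between genotypes was larger at P0 by 0.71 for Ptgfr 1420349_at, and it moved towards 0 for 6820431F20Rik (a shift of -0.71), Serpinb6b (-0.50), Card14 (0.60) and Akr1b8 (0.46). Those of Olfml3, Dmrta2 and Serinc3 1456080_a_at shifted by -0.12, -0.33 and -0.30. The choice of genes on E17.5 favours shifts towards 0. Of the genes that stood beside these at E17.5, by the brightest probe set, Mt1, a metallothionein, differed by 4.08 at E17.5 and 4.56 at P0, Cenpw, a centromere protein, by 1.14 and 1.58, Bmf, a cell death gene, by -1.01 and -1.06, and Aldh18a1, of proline synthesis, by -0.85 and -0.30. The sign was not the same in every probe set of these genes: another one of Aldh18a1 differed by -0.58 at E17.5 and 0.05 at P0, and another one of Bmf by -0.15 and 0.14.

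The knockout arrays did not deviate alike in every gene. At E17.5, replicate 28 was the farthest from the control mean for Ptgfr (2.01), Serinc3 (1.42), Serpinb6b (2.42), Olfml3 (-3.28) and Dmrta2 (-2.17), and replicate 27 was the closest for Ptgfr (0.43), Serinc3 (0.85), Serpinb6b (0.33), Card14 (-0.86) and Dmrta2 (-0.15). For 6820431F20Rik the order was turned, with replicate 27 highest at 1.34 and replicate 28 lowest at 0.86. At P0, replicates 21 and 22 had the largest deviations of 6820431F20Rik (1.05 and 0.97, the others -0.19 to 0.26) and the smallest of Akr1b8 (0.13 and -0.05, the others -0.99 to -0.95) and Dmrta2 (-0.87 and -0.57, the others -2.0 to -1.50). The mean of the neural retina markers deviated by -0.45, 1.69, 1.22, -0.03 and 0.47 in the E17.5 replicates 24 to 28, and by 1.08, 1.45, 0.89, 1.95 and 0.75 in the P0 replicates 17, 18, 19, 21 and 22. Without E17.5 replicates 24 and 27, left out after seeing the data, the E17.5 differences were 1.61 for Ptgfr, 1.22 for Serinc3 and 1.91 for Serpinb6b. They were 1.13 for 6820431F20Rik, -1.72 for Olfml3, -1.05 for Card14, -1.14 for Akr1b8 and -1.44 for Dmrta2. Leaving out replicate 28 alone gave smaller differences for Ptgfr (1.18), Serinc3 (1.03), Serpinb6b (1.15), Olfml3 (-1.25) and Dmrta2 (-0.71). It gave larger ones for 6820431F20Rik (1.24), Card14 (-1.17) and Akr1b8 (-1.097). The lens epithelium markers deviated by -1.0 to 0.07 at E17.5 and by -1.34 to -0.36 at P0. The part of these cells in the E17.5 differences of the 8 genes was not tested.

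**Figure D4:**
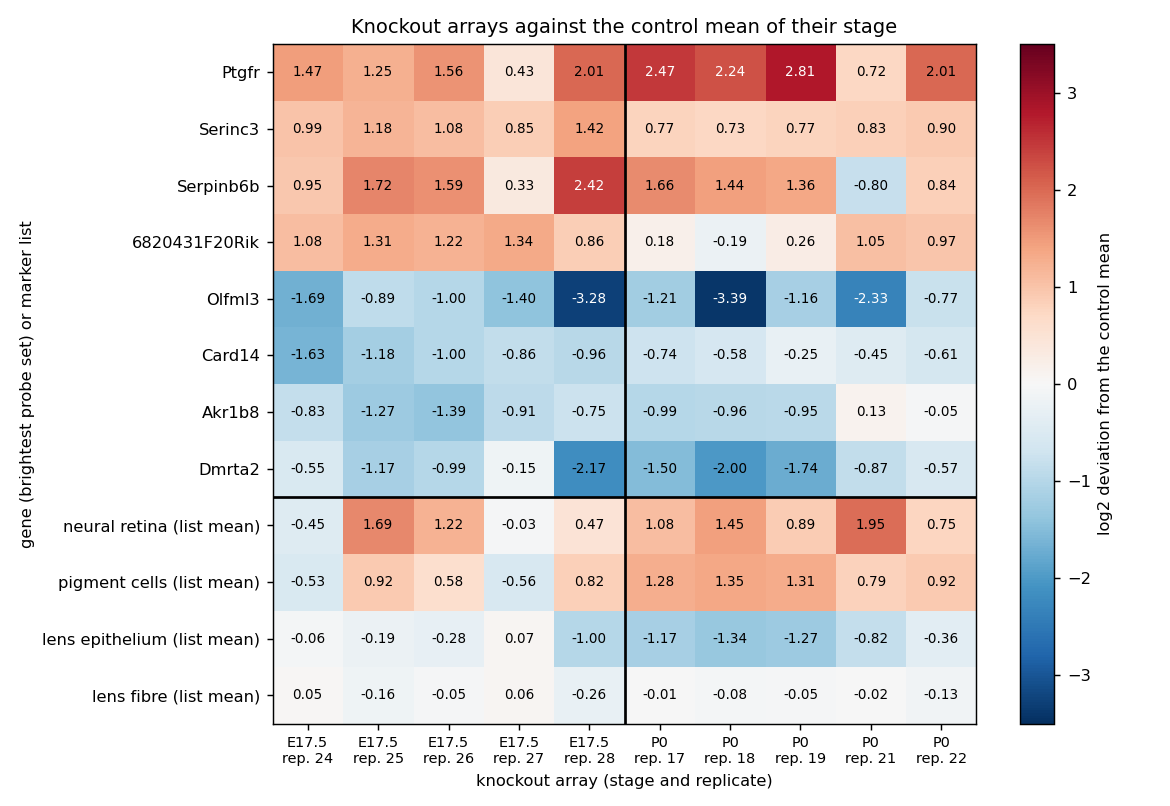
Deviation of each knockout array (columns) from the control mean of its stage in log2, for the brightest probe set of the 8 genes and for the mean of 4 marker lists (rows); red is higher and blue lower. The first 4 genes are red and the next 4 blue in all E17.5 arrays, and at P0 single arrays cross 0 for Serpinb6b, 6820431F20Rik and Akr1b8, while the neural retina markers are highest in P0 replicate 21.

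Over the 20 arrays, which share genotype and stage, the brightest probe sets of the members moved with each other to different degrees, given here as a description. Ptgfr and Dmrta2 correlated at r = -0.862, Ptgfr and Serpinb6b at 0.794, Olfml3 and Dmrta2 at 0.817, and Serpinb6b and Akr1b8 at -0.814. The pseudogene 6820431F20Rik followed Serinc3 most closely (0.803) and was less related to Serpinb6b (0.303) and Dmrta2 (-0.308). Among all other genes, the highest correlations were those of Dnaja1 (0.952) and Nme1 (0.948) with Ptgfr, Bzw1 (0.953) and Tusc3 (0.938) with Serinc3, and Zfp52 (0.932) and Lpcat3 (0.93) with Serpinb6b. For 6820431F20Rik they were Rab18 (0.906) and Dcun1d1 (0.889), for Akr1b8 Trpm4 (0.836) and Gga1 (0.828), and for Dmrta2 Trak1 (0.966) and E130218I03Rik (0.965). Olfml3 was closest to Polr2a (0.922) and to Phtf1 (0.913), which lies on the same chromosome with 8 genes of the array between them. Card14 was closest to Vgll1 (0.901) and Slc26a11 (0.892), the latter separated from it by 1 gene.

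By the RefSeq order of genes, Serinc3 lies on chromosome 2 with E2f1 (100 genes with a probe set between them), Serpinb6b on chromosome 13 with E2f3 (15 between) and Dmrta2 on chromosome 4 with E2f2 (328 between). Ptgfr and Olfml3 lie on chromosome 3, Akr1b8 on 6, 6820431F20Rik on 8 and Card14 on 11. Of the 16 genes next to the members, 2 passed at P0, where 23.7% of all genes passed. They were Akr1b10, given above, and 9530057J20Rik beside the pseudogene, which fell by 0.38 ± 0.12 (adjusted p = 0.0354). The other neighbours were Ifi44l and Gm31881 of Ptgfr, Ttpal and 0610039K10Rik of Serinc3, Serpinb1a and Serpinb9 of Serpinb6b, 2610005L07Rik of the pseudogene, Syt6 and Hipk1 of Olfml3, Eif4a3 and Sgsh of Card14, Slc35b4 of Akr1b8, and Faf1 and Elavl4 of Dmrta2. Among the 50 genes on each side of the targeted genes, 26 of 100 passed around E2f1 (12 rose and 14 fell), 29 around E2f2 (17 and 12) and 21 around E2f3 (12 and 9), against 23.7% of all genes. The largest changes there were those of 1700003F12Rik (1.12), Tpx2 (0.71), Procr (0.63), Dusp15 (-0.75), 5430405H02Rik (-0.70) and Plagl2 (-0.62) around E2f1. Around E2f2 they were those of Camk2n1 (2.02), Pla2g5 (1.79), C1qa (1.18), E130218I03Rik (-1.32), Selenon (-0.66) and Man1c1 (-0.57). Around E2f3 they were those of Prl8a2 (2.49), Gmnn (1.29), Agtr1a (1.12), Slc17a1 (-0.88), Tubb2a (-0.66) and Slc22a23 (-0.63). Of these, Procr, 5430405H02Rik, Prl8a2 and Agtr1a had dim probe sets, above the array median in 0, 1, 3 and 1 of the 10 P0 arrays.

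**Figure D5:**
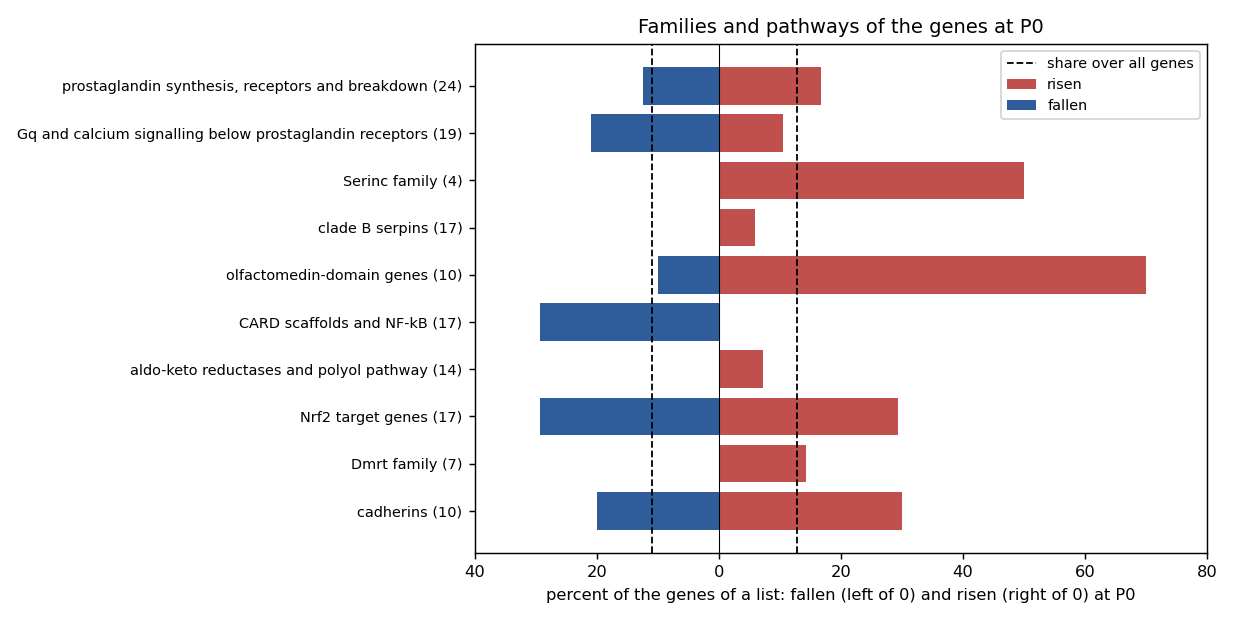
Percent of the genes of each family or pathway that fell (left of 0) or rose (right of 0) at P0, with the number of genes in brackets; dashed lines mark the share over all genes (11% fallen and 12.7% risen). Clade B serpins and aldo-keto reductases lie under the dashed lines, and 7 of 10 other genes with an olfactomedin domain, some with dim probe sets, rose while Olfml3 itself fell.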

How the data were processed

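Lens RNA of 20 mice was measured on Affymetrix arrays, labelled as biotinylated cRNA from 2 ug of total RNA, per the labels. The authors deposited 1 value per probe set and array on a log2 scale, as read from their range of 1.72 to 15.0. Background correction, probe summary and normalization were not given in the sources used here. The values were used as deposited, since the array medians lay within 5.05 to 5.25. No pair of arrays had more than 0.142% of values in common. Of 45101 probe sets, 64 controls were left out.

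A platform annotation named 1 gene for 34945 probe sets, several for 932 and none for 9160, with symbols updated by Entrez identifier through RefSeq (GRCm38.p6). A gene with several probe sets was represented by the one of highest mean over the 20 arrays. Values of different probe sets are on scales of their own. Their levels were set side by side to pick a gene's probe set, to place it against the array median, and in averages.

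The 10 P0 arrays were fitted with limma 3.58.1 (R 4.3.3; lmFit and eBayes) without a filter, and the procedure was tested on simulated data. Errors beside a change are SEs of the fit, errors beside a mean are SDs of 5 arrays, and a positive change means higher in knockout lenses. Alternatives were all 20 arrays, quantile normalization, median centring, filters at the 50th and 75th percentile, a trended robust prior, the neural retina markers as a covariate, 1 probe set per gene (also the brightest in controls), the mean of a member's probe sets, and leaving out each array.

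The 8 genes, the 10 family and pathway lists, the 9 marker lists and the rules were chosen with earlier results of these data known, so that no count over them is independent support for what those results showed. The genes named are the members, the targeted genes, the 2 genes most correlated with each member, the nearest neighbours, and from each list up to 3 risen and 3 fallen by smallest adjusted p. Around the targeted genes the 3 largest changes in each direction are named. Mt1, Cenpw, Bmf and Aldh18a1 are named because earlier results put them beside the members. Xist and genes of the Y chromosome stay unnamed.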

Additional observations from a re-analysis of the deposited data

Results flagged for a closer look

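Among 68 groups of 5 arrays, 1 per probe set of the 8 genes and group, 2 held a value far from the other 4 by Dixon's test at its 95% critical value of 0.71, where chance alone gives about 1 in 20. Serinc3 1455550_x_at stood at 8.16 in TKO P0 replicate 21, and the other 4 arrays lay at 8.56 to 8.66 (gap over range 0.794). Serinc3 1448847_at stood at 2.68 in control E17.5 replicate 10, and the other 4 lay at 2.86 to 2.91 (0.757).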

How the results depend on the processing

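The number of member probe sets called at P0 (9 of 17) was 5 with the filter at the 75th percentile, which left 9 of them, 5 with the neural retina covariate, 5 with 1 probe set per gene and 4 with the brightest probe set of each gene in controls, and 7 to 11 without single arrays. List genes called (46 of 139) numbered 26 with that filter, which left 48, and 9 with the covariate, and 39 to 51 without single arrays. Genes called around the targeted genes (76 of 300) numbered 15 with the covariate and 56 to 86 without single arrays. All probe sets called (9605 of 45037) numbered 5507 with that filter, which left 11435, and 1382 with the covariate. The genotypes did not overlap in that covariate at P0. Without single arrays 7193 to 10758 probe sets were called. Probe sets without overlap at E17.5 (10) numbered 10 to 11 without single arrays, those apart between stages in controls (4) 4 to 6, and those in knockouts (1) 1 to 2, the 2 without TKO P0 replicate 21. With median centring these counts were 9, 3 and 1, and with quantile normalization 10, 5 and 1. Signs turned only in Serinc3 probe sets that did not pass: with the covariate 1455550_x_at was 0.024, 1417816_s_at 0.25 and 1448847_at 0.19. Without single arrays 1448847_at lay between -0.111 and 0.0013 (without control P0 replicate 8) and 1417816_s_at between -0.124 and 0.025 (without TKO P0 replicate 21). The cause was not tested. Averaging a member's probe sets, taking the brightest in controls (45 list genes and 77 around the targeted genes called) and the values without TKO E17.5 replicates 24 and 27 were chosen after seeing the data. No paired analysis was possible because the groups share no replicate numbers.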
